A study of Homo sapiens with 6 samples.

Results

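The genes described here are named as nuclear tRNA genes for leucine, serine or selenocysteine, the tRNAs with a long variable arm. They were taken from the RefSeq gene table for GRCh38.p14 as genes of the biotype tRNA outside the mitochondrial chromosome whose symbols start with TRL-, TRS- or TRU-. This gave 60 of 443 nuclear tRNA gene records, of which 32 are leucine, 26 serine and 2 selenocysteine genes. Membership rests on the symbol, and the arm itself was not checked. TRL-CAA5-1 and TRS-AGA5-1, at 74 and 72 bases, were shorter than all others, which have at least 82, and had no peak in any list. A peak was counted on a gene when they shared at least 1 bp.

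The peaks come from FLASH-seq, which sequences the RNA fragments that ultraviolet light has joined to a protein of interest. The host was HEK293 Flp-In T-Rex, an established human embryonic kidney line with a transgene that tetracycline switches on, and all groups received tetracycline at 1 µg/ml and UV-C light. The baits were GFP, HSPA1A and HSPA8, each expressed as a tagged transgene (3xFLAG-HBH) in cells that also hold the untagged endogenous HSP70 genes, with 2 biological replicates per bait. HSPA1A is the stress-inducible and HSPA8 the constitutive member of the HSP70 chaperone family. Peak lists were analysed for both replicates of HSPA1A and both of HSPA8. The GFP libraries were not analysed here. The values below therefore have no control bait beside them, and binding and RNA abundance cannot be told apart.

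tRNAs fold into a cloverleaf of an acceptor stem, a D arm, an anticodon arm, a variable region and a T arm. In most tRNAs the variable region is a short loop between the anticodon and T arms. In leucine, serine and selenocysteine tRNAs it is drawn out into a stem and loop, and this defines class II tRNAs. The serine synthetase SARS1 uses this arm to recognise its tRNAs, and it charges the selenocysteine tRNA as well, on which serine is then converted by PSTK and SEPSECS. RNA polymerase III transcribes all of these genes, most of them from promoter elements inside the gene and the selenocysteine gene from elements upstream of it.

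The 4 lists held between 2040 and 3131 peaks. Of these, 353 and 617 lay on scaffolds outside the chromosomes in the HSPA8 lists, and 0 in each HSPA1A list. The reason for this was not tested. Differences between baits below cannot be told apart from differences in how the lists of each bait were made. Read depth is unknown, since the files give no read counts. The number of nuclear tRNA genes with a peak was 174 of 443 for HSPA1A replicate 1, 152 for HSPA1A replicate 2 and 175 for HSPA8 replicate 1, but 56 for HSPA8 replicate 2. That last list therefore stands apart, and the main differences below are also given without it.

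Of the 60 genes, 24 carried a peak in any list (40.0%, against 53.7% of all nuclear tRNA genes). HSPA1A replicate 1 had a peak on 17 of them (28.3%, against 39.3% of all nuclear tRNA genes). HSPA1A replicate 2 had 15 (25.0%, against 34.3%), HSPA8 replicate 1 had 21 (35.0%, against 39.5%) and HSPA8 replicate 2 had 4 (6.67%, against 12.6%). Each gene with a peak carried a single peak per list. The mean was 16.0 ± 1.41 genes with HSPA1A (SD, n = 2) and 12.5 ± 12.0 with HSPA8 (SD, n = 2). The difference of 3.5 genes was smaller than the spread between the HSPA8 replicates (exact two-sided permutation of the bait labels, 6 orders, p = 1; the test cannot go below 0.33). Without HSPA8 replicate 2 the difference was -5, the opposite direction, and without HSPA8 replicate 1 it was 12.

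These peaks made up 0.620% and 0.729% of all peaks with HSPA1A, and 0.671% and 0.196% with HSPA8. The difference of 0.241 percentage points was smaller than the spread between the HSPA8 replicates (exact two-sided permutation test, p = 0.667). It was 0.00331 without HSPA8 replicate 2 and 0.478 without HSPA8 replicate 1.

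Across the lists, 4 of the 60 genes had a peak in all 4, against 7.45% of all nuclear tRNA genes. A further 6 had a peak in every list but HSPA8 replicate 2, against 12.6%. Both HSPA1A lists shared 11 genes (18.3%, against 26%), and both HSPA8 lists shared the 4 genes found everywhere (6.67%, against 11.5%). A peak in both HSPA1A lists and in neither HSPA8 list was found at 1 gene (1.67%, against 5.19%), TRL-AAG4-1. The reverse was found at 0 genes, here and among all 443.

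**Figure D1:**
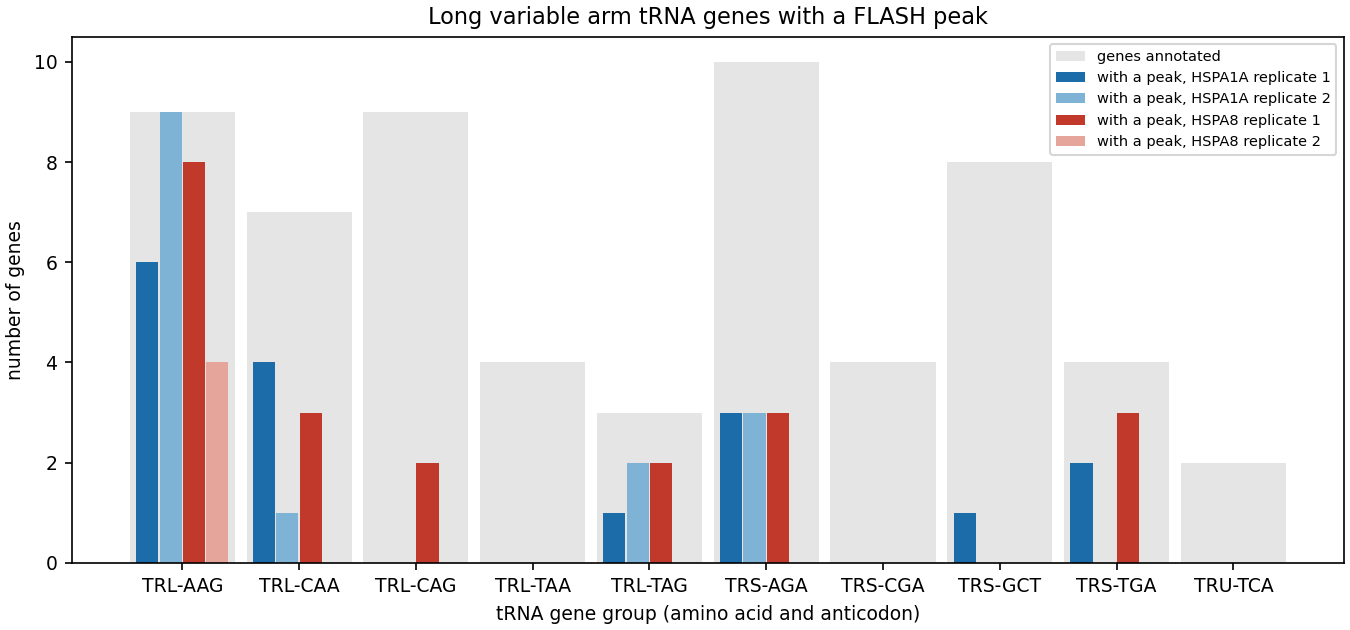
Number of genes with a peak in each list (coloured bars, 1 per list) for the 10 groups of long variable arm tRNA genes by anticodon, over the number of genes annotated (grey bars). TRL-AAG has the most genes with a peak in each of the 4 lists, and TRL-TAA, TRS-CGA and TRU-TCA have 0 in all of them.

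The peaks were spread unevenly over anticodons. All 9 leucine genes with anticodon AAG had a peak in at least 1 list, with 6 and 9 of them in the lists of HSPA1A and 8 and 4 in those of HSPA8, replicate 1 first. Serine TGA followed with 3 of 4 genes in any list, leucine TAG with 2 of 3 and leucine CAA with 4 of 7. Serine AGA had 3 of 10, leucine CAG 2 of 9 and serine GCT 1 of 8. Of all nuclear tRNA genes, 53.7% had a peak in any list. Leucine TAA and serine CGA, with 4 genes each, and selenocysteine TCA had 0 in every list. In HSPA8 replicate 2 the only genes with a peak were 4 of leucine AAG.

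Leucine and serine genes were then counted apart. Of 32 leucine genes, 11 and 12 had a peak with HSPA1A and 15 and 4 with HSPA8. Of 26 serine genes the numbers were 6 and 3 with HSPA1A and 6 and 0 with HSPA8. Over all nuclear tRNA genes the shares were 39.3% and 34.3% with HSPA1A and 39.5% and 12.6% with HSPA8. Leucine genes lay on both sides of these shares, and serine genes below them in all 4 lists. The difference between the amino acids was not tested.

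Both selenocysteine genes, TRU-TCA1-1 on chromosome 19 from 45478601 to 45478687 and TRU-TCA2-1 on chromosome 22 from 44150657 to 44150740, had no peak listed in any of the 4 lists. The tRNA they name reads the UGA codon of selenoprotein messages. Since depth is unknown, this says only that no peak was listed there.

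Copies of tRNA genes matter for these counts. In the gene symbols the first number marks a mature sequence, called an isodecoder family, and the second a copy of it. The 60 genes fall into 40 families, of which 7 have several copies. The 4 copies of TRL-AAG2, on chromosomes 5, 6, 14 and 16, had the same score as each other in HSPA1A replicate 1, in HSPA1A replicate 2 and in HSPA8 replicate 2. The 3 copies of TRL-AAG1 on chromosome 5 likewise shared a score of 5 in HSPA1A replicate 2. Peaks on such copies are uncertain between them and are not separate observations. In HSPA1A replicate 1 the peaks on TRL-AAG3-1, TRL-AAG4-1 and TRL-TAG2-1 had the score of the TRL-AAG2 copies, 9, and covered the same bases. Families are thus not always separate observations either.

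Other families had peaks at some of their copies. Of 6 copies of TRS-AGA2, the same 2, TRS-AGA2-1 on chromosome 6 and TRS-AGA2-6 on chromosome 17, had a peak in both HSPA1A lists and in HSPA8 replicate 1. Of 7 copies of TRL-CAG1, 1 had a peak, in HSPA8 replicate 1. The 3 copies of TRS-GCT4 had none in any list. How reads that match several copies were placed is not given in the sources used here.

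Counted by family, 12 and 9 of the 40 had a peak with HSPA1A and 14 and 1 with HSPA8. The comparison with other nuclear tRNA genes was made by gene and by family. By gene, their share with a peak was lower than that of the other 383 genes in all 4 lists. The differences were -12.7 and -10.8 percentage points with HSPA1A and -5.21 and -6.91 with HSPA8, where the others had 41.0%, 35.8%, 40.2% and 13.6%. The mean difference was -8.89 percentage points (exact two-sided sign-flip permutation over the 4 lists, p = 0.12, its lowest possible value), and -9.55 without HSPA8 replicate 2. By family, the differences were 0.588 and 0.231 percentage points with HSPA1A and 9.79 and -4.22 with HSPA8. Their mean was 1.60, the other direction (exact sign-flip permutation test, p = 0.625). It was 3.54 without HSPA8 replicate 2 and -1.13 without HSPA8 replicate 1. The families were counted after the data had been seen.

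The authors' score per peak was used only to order peaks within a list. Its median on these genes was 9 and 8 with HSPA1A and 8 and 5 with HSPA8. On other nuclear tRNA genes it was 9 and 9, and 10 and 8. Over the whole lists it was 10 and 13, and 10 and 22. Scores ran from 5 to 17 in HSPA1A replicate 1, from 5 to 13 in HSPA1A replicate 2 and from 5 to 14 in HSPA8 replicate 1, and all were 5 in HSPA8 replicate 2. The highest score on another nuclear tRNA gene was 354, 361, 96 and 60 in the same lists, each on copies of the aspartate family TRD-GTC2. The median peak stood at percentile 46.5, 32.3, 43.3 and 4.0 of its list by score, against 46.5, 37.6, 49.5 and 19.5 for peaks on other nuclear tRNA genes. The mean difference was -6.73 percentile points, with HSPA1A replicate 1 at 0 (exact sign-flip permutation test over the lists, two-sided, p = 0.25). It was -3.82 without HSPA8 replicate 2.

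**Figure D2:**
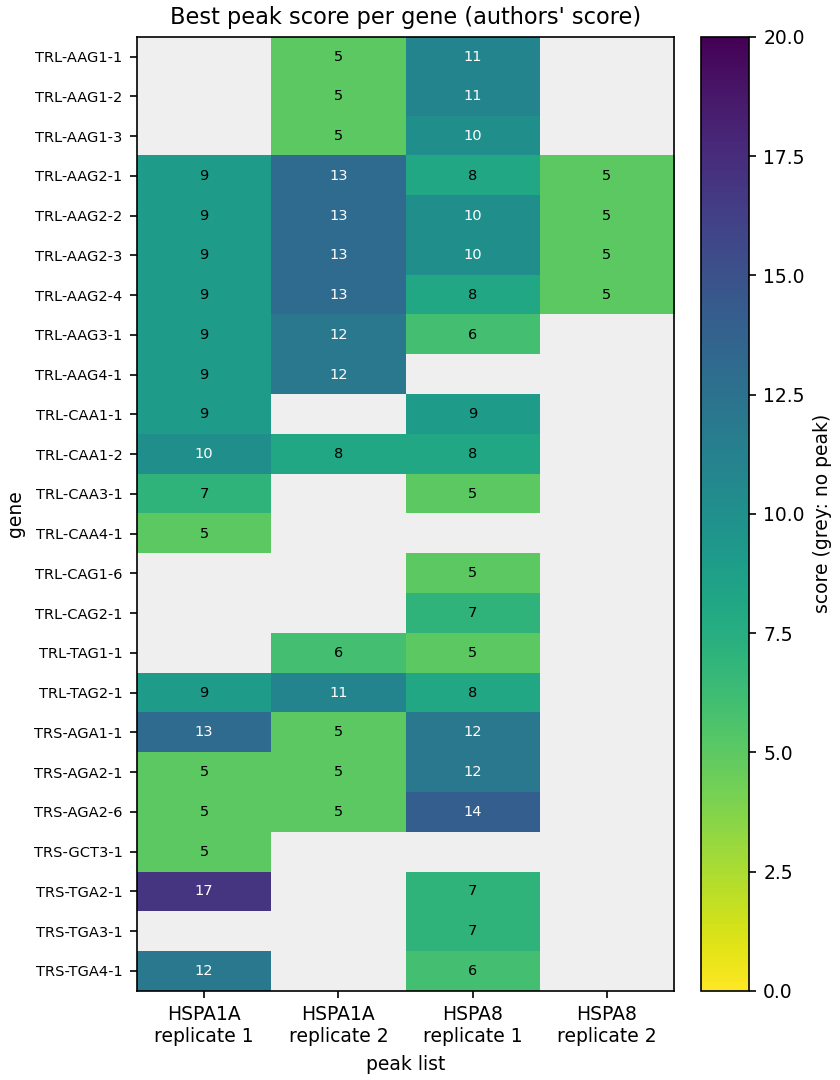
The authors' score of the best peak on each of the 24 long variable arm tRNA genes with a peak (rows) in the 4 lists (columns), with grey cells where no peak is listed. The score ranks peaks within a list only; TRS-TGA2-1 has the highest value of HSPA1A replicate 1, at 17, and the 4 TRL-AAG2 copies are the only genes filled in HSPA8 replicate 2.

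The leucine AAG2 genes carry the only peaks present in every list and, with TRL-TAG2-1, were the 5 genes with the highest mean rank. They decode leucine codons. TRL-AAG2-1 lies on chromosome 5 from 181187701 to 181187782, TRL-AAG2-2 on chromosome 6 from 28943622 to 28943703, TRL-AAG2-3 on chromosome 14 from 20610132 to 20610213 and TRL-AAG2-4 on chromosome 16 from 22297140 to 22297221. TRL-AAG2-2 scored 9 and 13 with HSPA1A, and 10 and 5 with HSPA8. The other copies had the same scores, except that TRL-AAG2-1 and TRL-AAG2-4 had 8 in HSPA8 replicate 1.

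TRL-TAG2-1, a leucine gene with another anticodon on chromosome 14 from 20625370 to 20625451, scored 9 and 11 with HSPA1A and 8 in HSPA8 replicate 1. TRL-AAG4-1, on chromosome 6 from 28478623 to 28478704, scored 9 and 12 with HSPA1A and had no peak with HSPA8. TRL-AAG3-1 had the same scores and bases in both HSPA1A lists, and a peak scored 6 in HSPA8 replicate 1. The 2 genes are therefore not shown to be separate signals with HSPA1A. For TRL-AAG4-1 one more limit applies. The annotated pseudogene TRNAL47P overlaps it, and both of its peaks lie on the shared bases in part.

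TRL-CAA1-2, on chromosome 6 from 28941053 to 28941157, scored 10 and 8 with HSPA1A and 8 in HSPA8 replicate 1. It is 105 bases long, and leucine CAA genes of such length hold an intron that is spliced out of the precursor. TRL-CAG2-1, a leucine gene on chromosome 16 from 57299951 to 57300033, had a score of 7 in HSPA8 replicate 1 alone.

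Among serine genes, TRS-AGA1-1 on chromosome 6 from 27541775 to 27541856 scored 13 and 5 with HSPA1A and 12 in HSPA8 replicate 1. TRS-TGA2-1, on chromosome 6 from 27545689 to 27545770, had 17 in HSPA1A replicate 1 and 7 in HSPA8 replicate 1 and no peak in the lists numbered 2. TRS-GCT3-1, on chromosome 11 from 66348120 to 66348201 and overlapping the non-coding gene B4GAT1-DT, had 5 in HSPA1A replicate 1 alone. Of other genes named here, TRS-AGA2-6 overlaps CTC1, TRS-AGA2-1 overlaps LOC101928743 and TRL-AAG2-3 overlaps LOC124903280.

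Chromosome 6 held 28 of the 60 genes and 11 of the 24 with a peak. On chromosome 5 all 4 genes, each of leucine AAG, had a peak. The 5 annotated pseudogenes with symbols starting TRL- or TRS- had 0 peaks in all 4 lists. TRNAL47P has another kind of symbol and is not among them. Of 34 genes for charging, processing and transcribing these tRNAs, among them LARS1, SARS1, SEPSECS, SSB and POLR3A, 1 had a peak in any list (2.94%, against 7.7% of all protein-coding genes). It was TRNT1, which adds the CCA end to tRNAs, with a score of 5 in HSPA8 replicate 1.

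**Figure D3:**
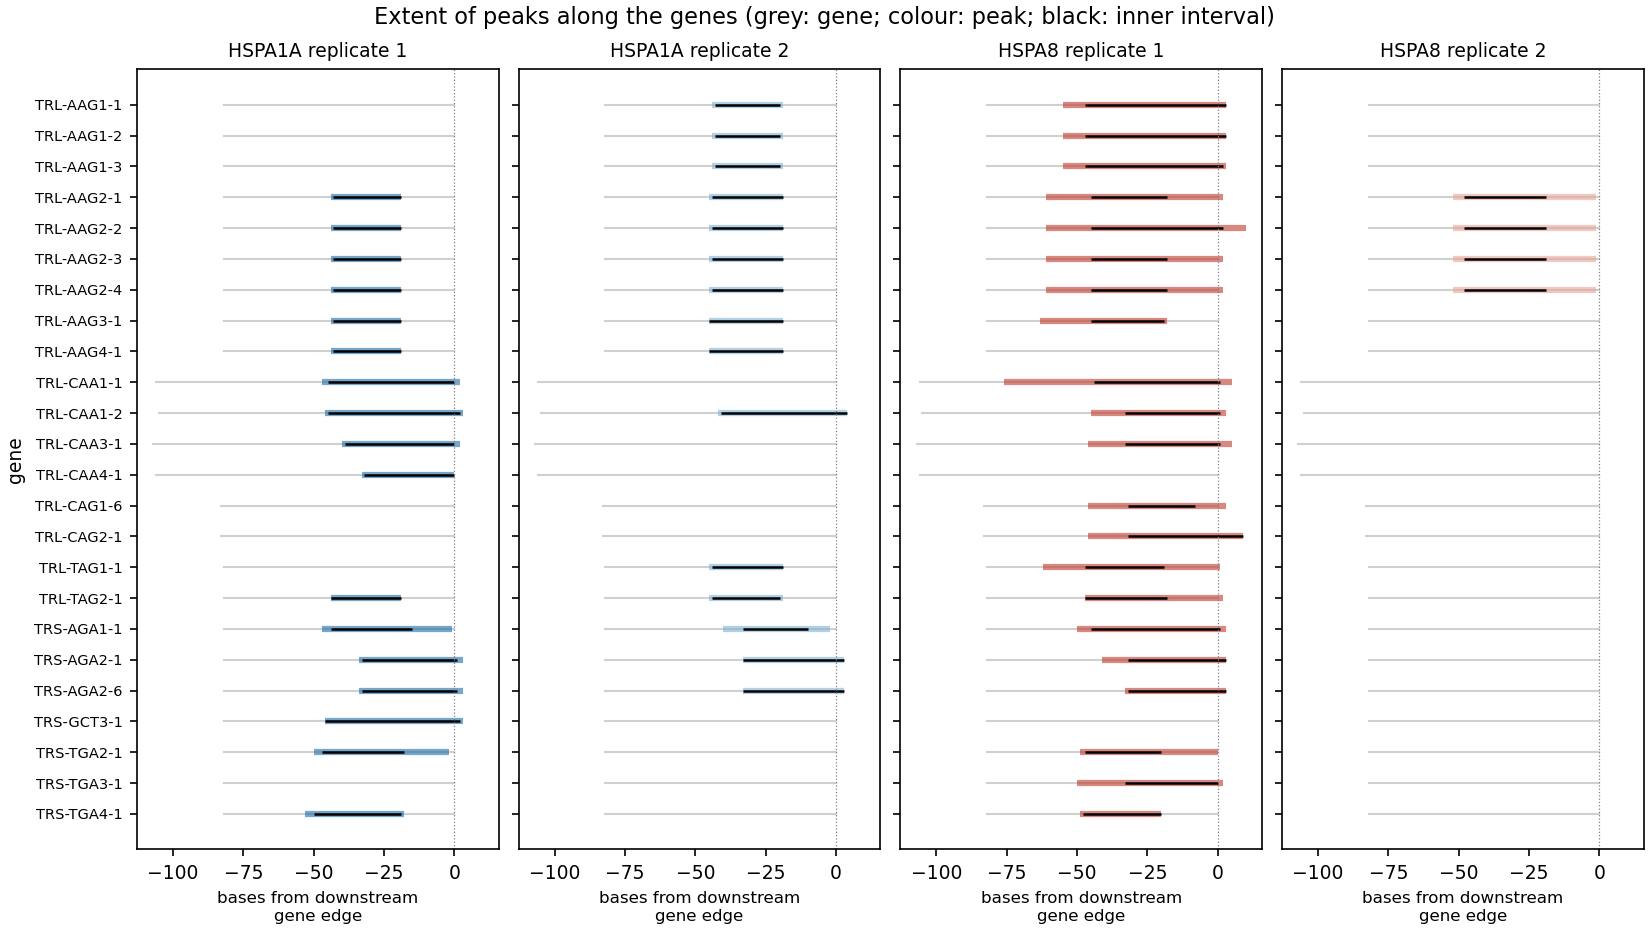
Extent of the peak on each of the 24 genes with a peak, in bases from the downstream edge of the gene (0, dotted), in the 4 lists. Grey lines are genes, coloured bars peaks and black lines the inner interval that the files give for each peak. The HSPA1A peaks on leucine AAG and TAG genes end 19 bases before the edge, and most HSPA8 peaks reach to it or past it.

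The place of a peak within the gene was measured in the direction of the peak's own strand, because the gene table gives no strand. All 19 long variable arm genes with a peak in several lists had it on the same strand each time. So did all 157 such genes among other nuclear tRNA genes. The copies of TRL-AAG2 had their peaks on different genomic strands, 3 on plus and TRL-AAG2-2 on minus, and in that direction the peak covered the same bases of all 4 copies in 3 of the lists. Without a sequence or exon table, bases were not assigned to arms of the tRNA. These measures, and all that follow on width and edges, were chosen after the data had been seen.

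With HSPA1A, peaks on leucine AAG and TAG genes were short and sat inside the gene. In replicate 1 all 7 covered bases 39 to 63 of 82, a width of 25 bp, and ended 19 bases before the downstream edge. In replicate 2 all 11 started at base 38 or 39, were 25 or 26 bp wide and also ended 19 bases before the edge. These 7 and 11 peaks belong to 4 and 6 isodecoder families, but in replicate 1 all 7 also had the same score of 9. In replicate 2 TRL-AAG3-1 and TRL-AAG4-1 shared a score of 12 and the same bases. These families are therefore not shown to be separate observations.

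With HSPA8, peaks on the same genes were longer on both sides. In HSPA8 replicate 2 the 4 TRL-AAG2 peaks covered bases 31 to 81, a width of 51 bp. In HSPA8 replicate 1, TRL-AAG2-1, TRL-AAG2-3 and TRL-AAG2-4 had a width of 63 bp from base 22 to 84, and TRL-AAG2-2 had 71 bp. There the 10 peaks on leucine AAG and TAG genes were between 45 and 71 bp wide, and 9 ran past the downstream edge. The exception was TRL-AAG3-1, which ended 18 bases before it.

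Each peak in the files also has an inner interval, whose meaning is not stated. On TRL-AAG2-1 it ran from base 40 to 63 and from 39 to 63 with HSPA1A, and from 38 to 64 and from 35 to 63 with HSPA8. The inner intervals of this gene thus ended within 1 base of each other in all 4 lists. Other genes differed. In HSPA8 replicate 1 the inner interval of TRL-AAG2-2 ended at base 84, past the gene, and 6 of the 10 on leucine AAG and TAG genes ended 10 or more bases short of the edge. With HSPA1A all 7 and all 11 did, and in HSPA8 replicate 2 all 4.

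Peaks on leucine CAA genes lay at the downstream end. TRL-CAA1-2 had its peak from base 60 to 108 in HSPA1A replicate 1, from 64 to 109 in HSPA1A replicate 2 and from 61 to 108 in HSPA8 replicate 1, which is 3, 4 and 3 bases past the edge. The 4 peaks in HSPA1A replicate 1 started between base 60 and 74. TRL-CAA1-1 in HSPA8 replicate 1 started at base 31 and was the widest peak on any of the 60 genes, at 81 bp.

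On serine AGA genes the downstream part was covered as well. TRS-AGA2-6 had its peak from base 49 to 85 in HSPA1A replicate 1 and from 50 to 85 in HSPA1A replicate 2 and HSPA8 replicate 1, each 3 bases past the edge. TRS-AGA1-1 started further upstream, at base 36 and 43 with HSPA1A and 33 in HSPA8 replicate 1. TRS-TGA4-1 ended 18 and 20 bases before the edge in HSPA1A replicate 1 and HSPA8 replicate 1, which is close to where the HSPA1A peaks on leucine AAG genes ended. TRS-AGA2-6, TRS-TGA4-1, TRL-AAG3-1 and TRL-CAA1-1 were named after their values were seen.

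**Figure D4:**
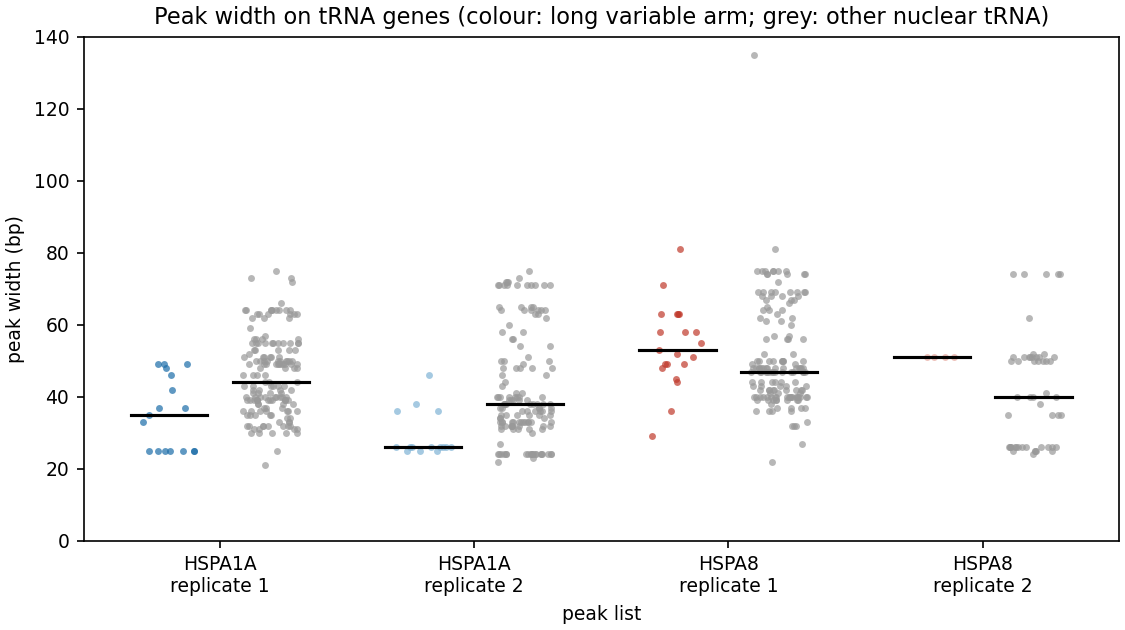
Width in bp of each peak on long variable arm tRNA genes (coloured points) and on other nuclear tRNA genes (grey points) in the 4 lists, with the median as a black line. The coloured median lies below the grey one in both HSPA1A lists, at 35 and 26 bp against 44 and 38, and above it in both HSPA8 lists, at 53 and 51 bp against 47 and 40.

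Over all long variable arm genes, the median peak width was 35 and 26 bp with HSPA1A, and 53 and 51 bp with HSPA8. The mean was 30.5 ± 6.36 bp with HSPA1A (SD, n = 2) and 52.0 ± 1.41 bp with HSPA8 (SD, n = 2). The baits did not overlap, and the difference of -21.5 bp was larger than the spread between replicates (exact two-sided permutation test, p = 0.33, which is its lowest possible value). Without HSPA8 replicate 2 it was -22.5 bp. On leucine AAG and TAG genes the medians were 25 and 26 bp with HSPA1A and 60.5 and 51 bp with HSPA8. Other groups differed less. Serine genes had 41.5 and 36 bp with HSPA1A and 46.5 bp in HSPA8 replicate 1. Leucine CAA genes had 45.5 and 46 bp against 51 bp in the same lists. HSPA8 peaks were also wider over the whole lists, with medians of 57 and 51 bp against 48 and 44 bp.

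On other nuclear tRNA genes the median width was 44 and 38 bp with HSPA1A and 47 and 40 bp with HSPA8. Long variable arm peaks were thus 9 and 12 bp narrower than other tRNA peaks with HSPA1A and 6 and 11 bp wider with HSPA8. The difference between baits in this gap was -19.0 bp, again without overlap between baits (exact two-sided permutation test, p = 0.33, which is its lowest possible value). The HSPA8 replicate 2 value rests on the 4 copies of a single family. Its comparison group included many proline gene copies with peaks 25 or 26 bp wide, such as TRP-TGG3-1 and TRP-AGG2-1. Proline copies were also compared in HSPA1A replicate 2, at 24 or 35 bp, and in HSPA8 replicate 1, at 47 to 67 bp. The gap without proline genes was not computed. Without HSPA8 replicate 2 the gap differed by -16.5 bp. With 1 value per family it was -18.2 bp.

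The inner intervals gave smaller values. Their median width on long variable arm genes was 29 and 25 bp with HSPA1A and 34 and 29 bp with HSPA8, a difference of -4.5 bp in the same direction (exact two-sided permutation test, p = 0.667). The difference between baits in the gap to other tRNA genes was -0.250 bp (exact two-sided permutation test, p = 1).

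The same genes were also compared one by one between the lists of different baits. Of 14 long variable arm genes with a peak in HSPA1A replicate 1 and HSPA8 replicate 1, 11 had the wider peak with HSPA8, against 62 of 106 other nuclear tRNA genes. For HSPA1A replicate 2 and HSPA8 replicate 1 it was 13 of 14 with 1 equal, against 71 of 103. HSPA8 replicate 2 shared 4 long variable arm genes with each HSPA1A list, all TRL-AAG2 copies, and all 4 were wider with HSPA8, by 26 bp and 25 bp. The median difference in the first 2 pairs was 14.5 and 33.0 bp, against 1.5 and 4.0 bp for other tRNA genes. Genes are not independent replicates, and these 4 pairs reuse the same lists.

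The downstream end of the peaks showed a difference of the same kind. With HSPA1A, 8 of 17 peaks (47.1%) and 11 of 15 (73.3%) ended 10 or more bases short of the edge, and with HSPA8 2 of 21 (9.52%) and 0 of 4. The mean was 60.2% ± 18.6 (SD, n = 2) against 4.76% ± 6.73 (SD, n = 2), without overlap (exact two-sided permutation test, p = 0.33, which is its lowest possible value). The difference of 55.4 percentage points was 50.7 without HSPA8 replicate 2. It lay in leucine AAG and TAG genes, with 7 of 7 and 11 of 11 peaks for HSPA1A and 1 of 10 and 0 of 4 for HSPA8. On serine genes it was 1 of 6 and 0 of 3 with HSPA1A and 1 of 6 in HSPA8 replicate 1. Leucine CAA genes had 0 such peaks in any list. Of peaks on other nuclear tRNA genes, 27.6% and 42.4% ended 10 or more bases short with HSPA1A, and 13.5% and 36.5% with HSPA8. There the baits overlapped. In HSPA8 replicate 2, though, those peaks were proline gene copies ending 40 bases short, such as TRP-AGG2-1, apart from TRD-GTC1-1 at 26. TRP-AGG2-1 also ended 40 bases short in HSPA1A replicate 2 and 17 in HSPA8 replicate 1. The shares without proline genes were not computed. Single groups differed between baits. Between the lists numbered 1, the methionine gene TRM-CAT2-1 went from 17 bases short with HSPA1A to 3 past the edge with HSPA8. The other genes with symbols starting TRM-CAT and a peak in both lists also went past it, except TRM-CAT3-1, which went from 17 to 25 bases short. The glutamine gene TRQ-CTG1-1 went from 18 to 17, but TRQ-CTG3-1 went from 19 short to 1 past. The genes named here were chosen after their values were seen. The shift was thus not limited to long variable arm genes, though not all others showed it.

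The remaining HSPA1A peaks stopped at or near the edge. In HSPA1A replicate 1, 6 of 17 ran past it by a median of 3 bases, and in HSPA1A replicate 2, 3 of 15 did. In HSPA8 replicate 1, 18 of 21 did, again by a median of 3 bases and at most 10. No peak on these genes began upstream of base 1 in any list.

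By inner interval, 58.8% and 80.0% of HSPA1A peaks and 38.1% and 100% of HSPA8 peaks ended 10 or more bases short of the edge. The baits then overlapped, and the difference was 0.364 percentage points (exact two-sided permutation test, p = 1).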

How the data were processed

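FLASH-seq peak lists of HSPA1A and HSPA8 (2 replicates each) were analysed. Per the labels' protocols, random tags merged PCR duplicates. Per the submitters' processing notes, Trim Galore 0.4.4, FastQC, STAR 2.6.0b and deepTools were used and the build was GRCh38. The peak caller, its threshold and the placement of multi-mapping reads are not given in the sources used here. The deposited score per peak is a whole number of unstated meaning and was used for ranks within a list. Peak positions and inner intervals were used as deposited, other than merging in an alternative.

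The members, lists and tests were chosen with earlier results of these data known. Peaks were assigned to genes by 1 bp of overlap, ignoring strand. The planned matching of strand and search for motifs were not run, and position along the gene was oriented by the peak. Nuclear tRNA genes were counted as 443 records with 429 distinct symbols. Named genes are the selenocysteine genes, those in all 4 lists, the 5 with the highest mean score percentile (0 where a list has no peak), those found with 1 bait alone in both replicates, and the best of each anticodon. Values per list were compared by exact permutation. With 2 replicates per bait, the label permutation ranks the difference between baits among the 6 orders of labels. The sign-flip tests over the 4 lists compare groups of genes within a list and do not concern the baits. Only the sign-flip test of the replicate block compares baits. Assignment was tested on 20 simulated lists and recovered 100% of 60 set genes. Python 3.11.15, numpy 2.4.6, pandas 2.3.3 and matplotlib 3.10.9 were used.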

Additional observations from a re-analysis of the deposited data

How the results depend on the processing

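Of 91 values under other settings, 87 kept their direction, 3 reversed and 1 fell to 0. The count of 87 does not measure stability. Values with the replicate block could not change, and asking for 50% of the peak inside the gene returned the main values. None of the exact tests could pass 0.05, so an unchanged call says nothing about stability. The bait difference in the number of genes was 0 when each list kept its higher-scoring part, where HSPA8 replicate 2 had no gene left, and lay between -5 and 12 with single replicates left out, negative without HSPA8 replicate 2. The share with a peak against other tRNA genes turned from -8.89 to 1.60 percentage points with isodecoder families in place of genes, and was -1.13 by family without HSPA8 replicate 1. The excess of HSPA1A peaks ending inside, relative to other tRNA genes, turned from 45.5 to -8.42 percentage points by inner interval. It was 29.2 without HSPA8 replicate 2, and was not computed without proline genes. The cause was not tested. The bait difference in share of peaks, 0.241 percentage points, was 0.0850 in the higher-scoring part and 0.156 on chromosomes alone. The score rank difference was -10.2 with peaks merged. The higher-scoring part gave no value for score rank, width or ends, and the strand setting was not run. The width, end and family measures and the settings with inner intervals or without aspartate genes were chosen after seeing the data.

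The labels name no day or batch for a replicate number. Deviations of same-numbered lists correlated at 0.304 over the 60 genes, but 2 pairs do not establish pairing. Pairing the lists by replicate number cannot change a difference between baits, so only the test differed. It was 3.5 for the number of genes (exact sign-flip permutation, p = 1). For width it was -21.5 bp (exact sign-flip permutation, p = 0.5, which is its lowest possible value).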
